A study of Mus musculus with 21 samples.

Results

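Genes of the secretory club cell were followed in mouse lungs that had received propylene glycol (PG) or vitamin E acetate (VEA), both of which are components of e-cigarette liquids. The genes were chosen by name, as the 9 members Scgb1a1, Scgb3a1, Scgb3a2, Bpifa1, Cyp2f2, Cbr2, Cckar, Chad and Cldn10, out of 23238 gene symbols in the files. These members and the gene lists below were chosen with earlier results of these data known. Their counts are therefore descriptions, also where a share of all genes stands beside them. All 9 were present and all 9 passed the filter on low counts, which left 14727 genes for testing. The mice were C57BL/6, with 3 animals in each of 7 groups and 1 library per animal. One group received PG at 826 (animals 22, 23 and 25), one received PG at 1100 (27, 28 and 30), and their control received saline (6, 8 and 10). VEA was given at 3.12 (animals 56, 57 and 59), 6.25 (63, 64 and 65) and 12.5 (66, 68 and 70), and 10% ethanol (12, 13 and 14) was taken as its control. The unit of these doses is mg/kg in the sample labels but mg/mL in the text on the design, so the numbers serve here as names. Every animal had 50 µL instilled into the trachea once a day for 14 days and was killed on day 15, and lung RNA was taken after the airways had been lavaged. What VEA was dissolved in and the animals' ages are not in the labels used here. P-values measure the spread between these animals.

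Club cells are non-ciliated secretory cells of the airway lining. They release secretoglobins, small secreted proteins of the airway fluid, and they carry much of the lung's capacity to oxidise foreign compounds through cytochrome P450 enzymes. They also act as progenitors of ciliated and mucous (goblet) cells in the small airways of the mouse. Chemicals that club cell P450 enzymes turn into reactive products, naphthalene being the textbook case, injure these cells in mice.

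On the mouse genome assembly GRCm38, with gene models from GENCODE M21, Scgb1a1 lies on chromosome 19 (9083636 to 9087958, minus strand) and Cyp2f2 on chromosome 7 (27119909 to 27133660, plus strand). Chromosome 11 carries 3 members, namely Scgb3a1 (49663610 to 49665118, plus), Chad (94565047 to 94569127, plus) and Cbr2 (120729489 to 120732114, minus). Bpifa1 is on chromosome 2 (154142880 to 154149219, plus), Cckar on chromosome 5 (53697776 to 53707705, minus) and Cldn10 on chromosome 14 (118787908 to 118875489, plus). All are protein-coding genes. Of the 9, 3 overlap another gene on the opposite strand: Chad overlaps Acsf2, which had 531 counts over the 21 libraries, while Cyp2f2 overlaps Gm15883 and Cldn10 overlaps n-R5s51, which are not among the symbols in the files. The strand setting of the counting is not given in the sources used here, so reads of such a pair cannot be told apart.

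Promoter sequence is shown for the members whose windows held the core motif of the NKX2 factor family, because Nkx2-1 is the lineage factor of lung epithelium and the best known regulator of secretoglobin genes. The windows are the 250 bases before each start site in RefSeq annotation on GRCm38.p6, read 5′ to 3′ on the gene's strand, and capitals mark CAAGTG or its reverse complement CACTTG.
Cyp2f2, chr7:27119705-27119954, plus strand: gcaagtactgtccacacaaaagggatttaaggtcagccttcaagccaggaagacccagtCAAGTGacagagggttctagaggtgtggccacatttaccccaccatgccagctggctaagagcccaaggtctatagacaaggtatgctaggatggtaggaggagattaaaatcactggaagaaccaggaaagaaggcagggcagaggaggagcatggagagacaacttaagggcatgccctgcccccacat
Scgb3a1, chr11:49663345-49663594, plus strand: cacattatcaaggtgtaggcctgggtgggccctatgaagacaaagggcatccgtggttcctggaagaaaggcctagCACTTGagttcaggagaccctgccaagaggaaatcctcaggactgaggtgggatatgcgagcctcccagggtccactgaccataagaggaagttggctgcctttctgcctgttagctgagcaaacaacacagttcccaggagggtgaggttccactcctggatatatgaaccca
Cldn10, upstream start, chr14:118787621-118787870, plus strand: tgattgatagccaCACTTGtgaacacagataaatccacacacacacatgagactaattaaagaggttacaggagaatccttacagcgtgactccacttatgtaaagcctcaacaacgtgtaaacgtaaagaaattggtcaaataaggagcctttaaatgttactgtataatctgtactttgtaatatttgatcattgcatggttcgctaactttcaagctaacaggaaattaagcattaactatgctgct
Cldn10, downstream start, chr14:118854700-118854949, plus strand: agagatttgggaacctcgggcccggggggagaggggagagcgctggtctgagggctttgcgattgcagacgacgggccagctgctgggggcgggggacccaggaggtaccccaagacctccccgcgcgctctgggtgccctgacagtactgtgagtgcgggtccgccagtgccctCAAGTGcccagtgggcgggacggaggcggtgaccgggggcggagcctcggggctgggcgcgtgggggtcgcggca

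Promoter windows were found for 6 of the 9 members, 7 windows in all. They were searched for the NKX2, forkhead and AhR cores, the C/EBP and STAT patterns and the TATA box. On either strand, 4 of the 7 held CAAGTG. Both windows of Cldn10 are among them, so that gene is counted once per window. Of 32851 mouse promoter windows of the same length, 11.61% held CAAGTG. The match lies at -191 to -186 from the start site in Cyp2f2, at -174 to -169 in Scgb3a1, and at -237 to -232 and -75 to -70 before the upstream and downstream starts of Cldn10. The forkhead core TGTTTAC, in 3.17% of windows, and the C/EBP pattern TTGCNNAA, in 9.56%, were in none of the 7. The AhR core, in 28.16% of windows, was in both windows of Cldn10. The TATA box, in 12.37%, was in the windows of Bpifa1 and Chad, and the STAT pattern, in 5.85%, was in that of Chad. Enrichment was not tested for any of these patterns. A match is a description of the letters only. Of the members that hold CAAGTG, Cyp2f2 and Cldn10 fell after VEA, while no change of Scgb3a1 passed the test. Of those whose window had no CAAGTG, Cbr2 fell at each VEA dose, and Chad and Bpifa1 were not called at any single VEA dose. A link between the letters and the changes was not tested.

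Libraries held 8778028 to 11783151 counts, and 14843 to 15992 genes had at least 1 count. The 9 members together took 2.76% to 7.67% of a library, and Scgb1a1 alone took 2.13% to 5.96%. Between 187189 and 643357 counts stood behind each Scgb1a1 level, and 68 to 356 behind each Chad level, the lowest of the members. Ribosomal Rn45s took 14.6% to 26.1% of counts and haemoglobin genes 4.06% to 13.8%. Levels are given in CPM, a gene's counts scaled to a common library total, after TMM scaling, which evens out differences in library composition. Libraries count only the 3′ ends of transcripts, so levels are compared between samples and not between genes. A gene was called higher or lower at an edgeR quasi-likelihood adjusted p below 0.05 over all 14727 genes. Fold changes are log2 values with their SE.

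At PG 1100, 5 of the 9 members were lower than in saline animals and none was higher. These were Scgb1a1, Cyp2f2, Cbr2, Cckar and Chad, beside 3.23% of all genes tested that were called lower and 4.09% called higher. The count of 5 was 2 without saline animal 10 or PG 1100 animal 28, and 3 without saline animal 8 or PG 1100 animal 27. The median member change was -0.70 and that of all genes was 0.0061. At PG 826 none of the 9 was called, beside 0.136% of all genes in either direction and 0.0407% called lower. In that comparison 7 of the 9 had an unadjusted p below 0.05, as did 1395 of the 14727 genes, and 1 member was called by DESeq2 and 0 by limma-voom. The 3 PG 826 animals lay below all 3 saline animals for 5 members, a pattern found for 6.67% of genes, and the median member change was -0.51. Between the doses, 2 members were lower at PG 1100 than at PG 826, Scgb1a1 and Cyp2f2, beside 2.71% of genes called lower, and none was higher, beside 2.85%.

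At all 3 VEA doses Scgb1a1, Cyp2f2, Cbr2, Cckar and Cldn10 were lower than in 10% ethanol animals. That made 5 of 9 members at VEA 3.12, beside 2.09% of all genes called lower, and 5 of 9 at VEA 6.25, beside 2.25%. At VEA 12.5 the count was 6 of 9, with Scgb3a2 added, beside 4.23%. No member was called higher at any dose, beside 3.42%, 3.51% and 5.48% of genes from the low to the high dose. Median member changes were -1.01, -1.17 and -1.14 from the low to the high dose, and those of all genes were -0.0068, -0.0026 and -0.0145. Over the mean of the 3 doses, 6 members were lower and none higher, beside 5.57% and 6.08% of genes, and here Bpifa1 joined the 5 genes above. Along the 3 doses no member had a trend that passed the test, beside 0% of all genes (edgeR; 919 genes and 1 member, Scgb3a2, at an unadjusted p below 0.05, with 18 genes called by DESeq2 and 9 by limma-voom). Ethanol against saline called 0 of 9 members and 0% of all genes by edgeR, with 892 genes and 0 members at an unadjusted p below 0.05 and 1 gene called by DESeq2.

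**Figure D1:**
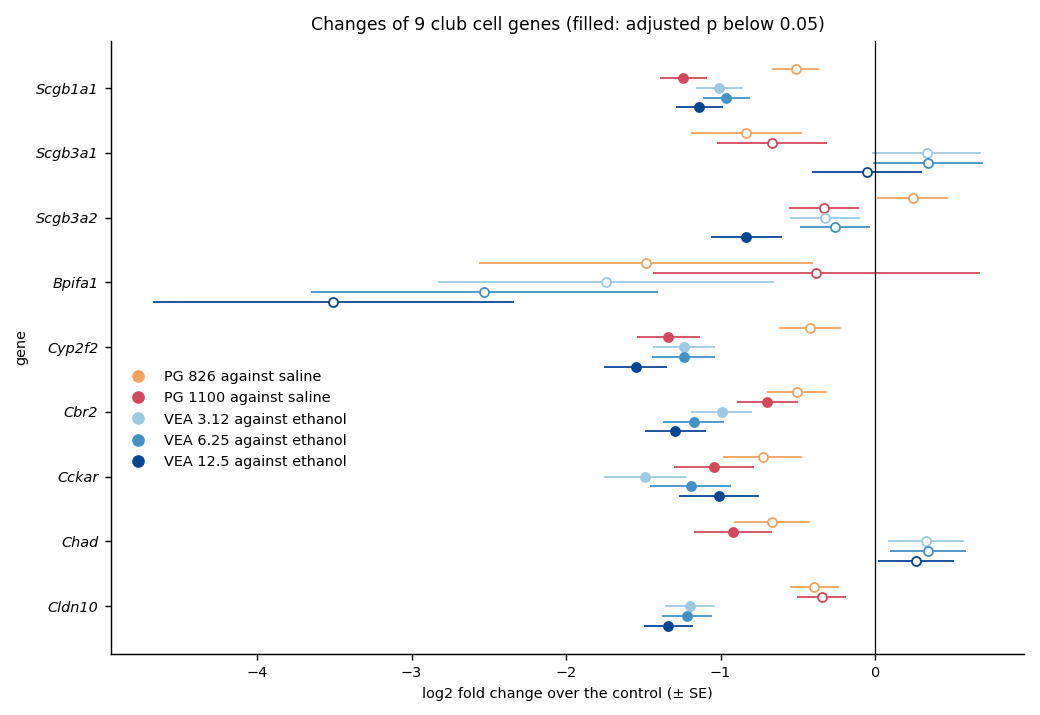
Log2 fold change (x axis) of each of the 9 members (y axis), with bars of 1 SE, for each PG dose against saline and each VEA dose against 10% ethanol, in colours; filled points passed the edgeR test. The filled points all lie below 0: none at PG 826, 5 at PG 1100, 5 at VEA 3.12, 5 at VEA 6.25 and 6 at VEA 12.5.

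Scgb1a1 encodes the main secretoglobin of club cells, long used as their marker. It stood at 38971, 39808 and 36912 CPM in the PG 826 animals and at 21286, 20719 and 27837 CPM in the PG 1100 animals, against 47418, 55268 and 62570 CPM in the saline animals. The 3 groups did not overlap, and both PG groups lay below saline. Means were 38564 ± 1490 CPM at PG 826, 23281 ± 3956 CPM at PG 1100 and 55086 ± 7578 CPM in saline (SD, n = 3 each). The change at PG 1100 was -1.24 ± 0.15 (adjusted p = 8.14e-07), a level 0.42 times that of saline, and the change at PG 826 was -0.51 ± 0.15 (adjusted p = 0.224). The step between the doses, PG 1100 against PG 826, was -0.73 ± 0.15 (adjusted p = 0.0020). Without saline animal 6 the PG 826 change was -0.61 and was called (adjusted p = 0.0388).

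In the VEA series Scgb1a1 had 62320, 59578 and 45237 CPM in the 10% ethanol animals. It had 27713, 29756 and 25665 CPM after VEA 3.12, 31537, 28151 and 25979 CPM after VEA 6.25, and 25739, 24277 and 25876 CPM after VEA 12.5. Every VEA animal lay below every ethanol animal, and VEA 3.12 overlapped both other VEA groups, while every VEA 12.5 animal lay below every VEA 6.25 animal. The changes were -1.01 ± 0.15, -0.96 ± 0.15 and -1.14 ± 0.15 from the low to the high dose (adjusted p = 2.95e-05, 5.94e-05 and 1.98e-06). Ordered by mean, the 7 groups ran PG 1100, VEA 12.5, VEA 3.12, VEA 6.25, PG 826, saline and ethanol. The 4 lowest groups each overlapped the next of these 4, PG 826 overlapped neither neighbour, and ethanol and saline overlapped, with means of 55712 ± 9175 CPM in ethanol animals and 55086 ± 7578 CPM in saline animals (SD, n = 3 each). In whole-lung RNA, fewer club cells and less RNA per club cell cannot be told apart, here and for every gene below.

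**Figure D2:**
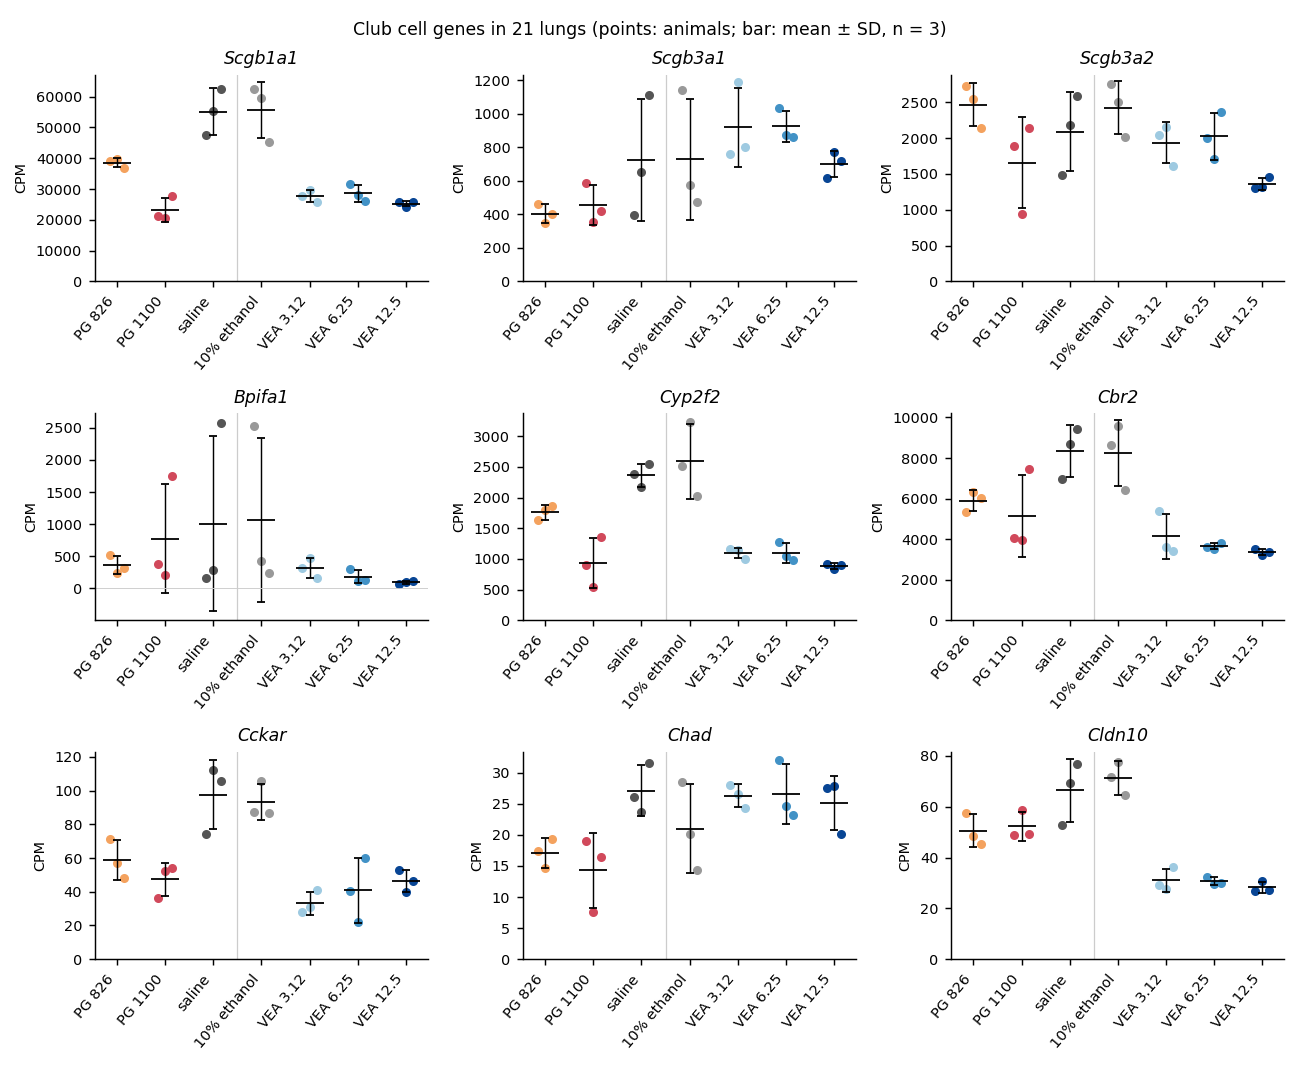
CPM (y axis) of the 9 members in each of the 21 animals, by group (x axis), with 1 point per animal, a line at the group mean and bars of 1 SD (n = 3). Scgb1a1 and Cyp2f2 are lower in the PG 1100 and VEA animals than in their controls, Scgb3a1 and Chad after VEA lie among the ethanol animals or above some of them, and Bpifa1 has 1 animal far above the others in the PG 1100, saline and ethanol groups.

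Cyp2f2 encodes the P450 enzyme that activates naphthalene in mouse club cells, and Cbr2 encodes a carbonyl reductase abundant in mouse lung. Cyp2f2 had 1627, 1801 and 1863 CPM in PG 826 animals and 899.6, 550.1 and 1352 CPM in PG 1100 animals, against 2386, 2166 and 2539 CPM in saline animals. The 3 groups did not overlap. Its change was -1.34 ± 0.20 at PG 1100 (adjusted p = 6.79e-05), -0.42 ± 0.20 at PG 826 (adjusted p = 0.514) and -0.92 ± 0.20 for PG 1100 against PG 826 (adjusted p = 0.0054). Fitted on the compared groups alone, the last had an adjusted p of 0.0556.

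Over the VEA series Cyp2f2 had 2521, 3236 and 2018 CPM in ethanol animals, then 1154, 1144 and 1001 CPM after VEA 3.12, 1281, 1040 and 975.0 CPM after VEA 6.25, and 918.0, 832.6 and 903.8 CPM after VEA 12.5. All 9 VEA animals lay below all 3 ethanol animals. The change at VEA 12.5 was -1.55 ± 0.20 (adjusted p = 8.51e-06), and it was -1.24 ± 0.20 at both VEA 3.12 and VEA 6.25 (adjusted p = 0.00032 and 0.00031).

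Cbr2 had 5324, 6321 and 6037 CPM in PG 826 animals and 4039, 3951 and 7478 CPM in PG 1100 animals, against 6951, 8678 and 9445 CPM in saline animals. PG 1100 animal 30 lay among the saline animals. The change at PG 1100 was -0.70 ± 0.19 (adjusted p = 0.0234). Its call was lost without saline animal 8 (-0.67, adjusted p = 0.0750), saline animal 10 (-0.60, 0.103), PG 1100 animal 27 (-0.55, 0.114) or PG 1100 animal 28 (-0.54, 0.174). It was also lost when only the groups compared were fitted (-0.70, adjusted p = 0.160) and without the 3 libraries with the fewest genes (-0.67, 0.079). After VEA the call at each dose was kept with any 1 animal left out. Cbr2 had 8662, 9600 and 6439 CPM in ethanol animals, 5392, 3617 and 3396 CPM after VEA 3.12, 3620, 3515 and 3809 CPM after VEA 6.25, and 3510, 3200 and 3364 CPM after VEA 12.5. No VEA animal reached the lowest ethanol animal, and the changes from the low to the high dose were -0.99 ± 0.20, -1.17 ± 0.20 and -1.29 ± 0.20 (adjusted p = 0.0017, 0.00026 and 3.30e-05).

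Cckar encodes the receptor for the gut hormone cholecystokinin, best known from the pancreas and gallbladder, and its transcript is enriched in mouse club cells. Cckar had 71.4, 56.9 and 48.4 CPM in PG 826 animals and 36.0, 52.1 and 53.9 CPM in PG 1100 animals, against 74.4, 112 and 106 CPM in saline animals. All PG animals lay below all saline animals, and the change at PG 1100 was -1.04 ± 0.26 (adjusted p = 0.0150). That call was lost without saline animal 8 (-0.93, adjusted p = 0.0682), saline animal 10 (-0.98, 0.0575), PG 1100 animal 27 (-0.88, 0.0752) or PG 1100 animal 28 (-1.12, 0.0535).

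After VEA, Cckar was lower at each dose, and its slope along the doses did not pass the test. It had 87.5, 106 and 86.7 CPM in ethanol animals, 27.8, 31.2 and 40.8 CPM after VEA 3.12, 40.4, 22.0 and 60.3 CPM after VEA 6.25, and 53.0, 39.6 and 46.6 CPM after VEA 12.5. None of the VEA animals reached an ethanol animal. The changes were -1.49 ± 0.26, -1.19 ± 0.26 and -1.01 ± 0.26 (adjusted p = 0.0014, 0.0088 and 0.0146). The call at VEA 12.5 was lost without ethanol animal 13 (-0.91, adjusted p = 0.0649), VEA 12.5 animal 68 (-0.89, 0.0800) or VEA 12.5 animal 70 (-0.999, 0.0638). The VEA 6.25 call was lost when only the groups compared were fitted (-1.19, adjusted p = 0.0869).

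Cldn10 encodes a claudin, a protein of tight junctions that marks club cells and their precursors. It was the 1 member for which the difference between the VEA 12.5 and PG 1100 effects passed the test of the main fit. Cldn10 had 57.7, 48.6 and 45.4 CPM in PG 826 animals and 48.8, 58.8 and 49.2 CPM in PG 1100 animals, against 52.9, 69.5 and 77.0 CPM in saline animals. Both PG groups overlapped saline, and neither change passed the test (-0.39 ± 0.16, adjusted p = 0.411 at PG 826, and -0.35 ± 0.16, adjusted p = 0.200 at PG 1100). In the VEA series it had 71.8, 77.8 and 64.5 CPM in ethanol animals, 29.4, 27.5 and 36.3 CPM after VEA 3.12, 32.5, 29.5 and 30.1 CPM after VEA 6.25, and 27.0, 30.6 and 27.1 CPM after VEA 12.5. The highest VEA animal lay far below the lowest ethanol animal. The changes were -1.20 ± 0.16, -1.22 ± 0.16 and -1.34 ± 0.16 (adjusted p = 4.00e-06, 3.75e-06 and 2.98e-07).

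The effect of VEA 12.5 minus that of PG 1100 was tested directly, each effect against its own control. Cldn10 was the 1 member of 9 called, beside 0.0543% of all genes called lower in this comparison, with a difference of -0.99 ± 0.22 (adjusted p = 0.0451). The value lies close to the threshold, and leaving out a single animal gave adjusted p up to 0.147: -0.95 without VEA 12.5 animal 70 (0.147), -0.95 without animal 66 (0.123), -0.92 without ethanol animal 13 (0.113), -0.85 without saline animal 6 (0.0940), -0.90 without PG 1100 animal 28 (0.0901), -1.02 without saline animal 8 (0.0831), -0.99 without ethanol animal 12 (0.0779), -1.04 without VEA 12.5 animal 68 (0.0770) and -1.06 without ethanol animal 14 (0.0537). For Scgb1a1, Cyp2f2, Cbr2 and Cckar the difference did not pass, at 0.10 ± 0.21, -0.21 ± 0.28, -0.60 ± 0.27 and 0.04 ± 0.36.

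Chad encodes chondroadherin, a leucine-rich matrix protein first described in cartilage. Chad had 17.4, 14.6 and 19.4 CPM in PG 826 animals and 19.0, 7.53 and 16.4 CPM in PG 1100 animals, against 26.0, 23.7 and 31.6 CPM in saline animals. All PG animals lay below all saline animals. The change was -0.67 ± 0.25 at PG 826 (adjusted p = 0.360) and -0.92 ± 0.25 at PG 1100 (adjusted p = 0.0164). The PG 1100 call was lost without saline animal 10 (-0.80, adjusted p = 0.0860) or PG 1100 animal 28 (-0.62, 0.189). It was also lost when only the groups compared were fitted (-0.92, adjusted p = 0.0881). After VEA no change of Chad passed the test. It had 28.5, 20.1 and 14.3 CPM in ethanol animals, 28.0, 26.6 and 24.4 CPM after VEA 3.12, 32.0, 24.6 and 23.1 CPM after VEA 6.25, and 27.5, 27.9 and 20.2 CPM after VEA 12.5. The VEA animals lay within the ethanol range but for 1 animal at VEA 6.25, and the changes were 0.33 ± 0.25, 0.34 ± 0.25 and 0.26 ± 0.24 (adjusted p = 0.512, 0.492 and 0.591). For Chad the effect of VEA 12.5 exceeded that of PG 1100 by 1.18 ± 0.35, which did not pass (adjusted p = 0.184). Of 11 cartilage genes in the files, 8 had under 50 counts over all 21 libraries and Matn1 had 0. The summed level of that list was 5.09 to 25.9 CPM in PG 1100 animals and 11.1 to 31.3 CPM in saline animals, and 12.2 to 13.0 CPM at VEA 12.5 and 22.0 to 29.1 CPM in ethanol animals. Neither of its 2 tested genes was called in those comparisons. Cytl1, a secreted cartilage protein, had a change of -1.13 ± 0.49 at VEA 12.5 (adjusted p = 0.176), with all 3 animals below all ethanol animals. The list's part in the Chad values was not tested.

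Scgb3a1 and Scgb3a2 are secretoglobins of the airway that are found in partly different cells, Scgb3a2 extending to the small airways and Scgb3a1 more proximal in mouse. Scgb3a2 had 2721, 2542 and 2142 CPM in PG 826 animals and 1891, 936.4 and 2142 CPM in PG 1100 animals, against 1491, 2188 and 2581 CPM in saline animals. The groups overlapped saline and neither change passed (0.24 ± 0.23 at PG 826, adjusted p = 0.806, and -0.33 ± 0.23 at PG 1100, adjusted p = 0.467). For PG 1100 against PG 826 the change was -0.58 ± 0.23 (adjusted p = 0.165), and without PG 1100 animal 30 it was -0.80 and called (adjusted p = 0.0497).

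Scgb3a2 had 2749, 2501 and 2022 CPM in ethanol animals, 2039, 2151 and 1617 CPM after VEA 3.12, 2000, 1714 and 2358 CPM after VEA 6.25, and 1301, 1321 and 1461 CPM after VEA 12.5. The VEA 12.5 animals lay below all ethanol animals and all other VEA animals, whereas the lower doses overlapped ethanol. The change was -0.32 ± 0.23, -0.26 ± 0.23 and -0.83 ± 0.23 from the low to the high dose, and only the last passed (adjusted p = 0.480, 0.597 and 0.0208). That call was lost without ethanol animal 12 (-0.73, adjusted p = 0.0860) or 13 (-0.81, 0.0671), or without VEA 12.5 animal 66 (-0.79, 0.0797), 68 (-0.80, 0.0803) or 70 (-0.88, 0.0523). It was also lost without the 3 libraries with the fewest genes (-0.80, adjusted p = 0.0857). The slope over the 3 doses was -0.06 ± 0.02 per dose unit (adjusted p = 0.679).

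Scgb3a1 passed the test in none of these comparisons. It had 459.5, 351.3 and 403.8 CPM in PG 826 animals and 587.3, 355.6 and 419.3 CPM in PG 1100 animals, against 395.9, 654.9 and 1114 CPM in saline animals. The saline animals spread widely, and the changes were -0.83 ± 0.36 and -0.67 ± 0.36 at PG 826 and PG 1100 (adjusted p = 0.493 and 0.330). It had 1141, 572.0 and 474.3 CPM in ethanol animals, 761.8, 1190 and 801.5 CPM after VEA 3.12, 1033, 875.3 and 863.6 CPM after VEA 6.25, and 617.6, 773.0 and 715.2 CPM after VEA 12.5. Its ethanol range covered all VEA animals but 1. The changes were 0.33 ± 0.36, 0.34 ± 0.36 and -0.05 ± 0.35 (adjusted p = 0.692, 0.675 and 0.955), and the last changed sign without ethanol animal 12 (0.42) or VEA 12.5 animal 66 (0.04).

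Bpifa1 encodes a secreted host-defence protein of the upper airway epithelium, and its changes had the largest SE of the members. Bpifa1 had 521.3, 246.1 and 315.0 CPM in PG 826 animals and 372.5, 208.0 and 1744 CPM in PG 1100 animals, against 159.3, 289.9 and 2578 CPM in saline animals. It had 2533, 431.8 and 232.4 CPM in ethanol animals, 324.6, 468.8 and 162.9 CPM after VEA 3.12, 305.1, 118.3 and 130.3 CPM after VEA 6.25, and 64.6, 97.7 and 118.9 CPM after VEA 12.5. The 3 animals PG 1100 animal 30, saline animal 10 and ethanol animal 12 stood at 1744 to 2578 CPM, while the other 18 lay between 64.6 and 521.3 CPM. The VEA 12.5 animals lay below all ethanol animals, and the change of -3.51 ± 1.17 did not pass (adjusted p = 0.0782). It was called by DESeq2 (-3.51, adjusted p = 0.0085) and limma-voom (-2.80, adjusted p = 0.0119), and it was -1.82 ± 0.57 (adjusted p = 0.0853) without the 3 animals just named. Over the mean of the VEA doses the change was -2.59 ± 0.79 (adjusted p = 0.0466). Without ethanol animal 12 it was -0.91 (adjusted p = 0.614), and leaving out ethanol animal 13 or VEA animal 56, 57, 59, 64, 65, 66, 68 or 70 alone gave -2.49 to -2.97 (adjusted p = 0.0566 to 0.0834). The PG changes, -1.48 ± 1.08 and -0.38 ± 1.06 at PG 826 and PG 1100, did not pass either.

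Krt15 set the same 3 animals apart, and other genes of this kind did so less clearly or not at all. Krt15, a keratin of basal airway cells, had 126 CPM in PG 1100 animal 30, 25.1 CPM in saline animal 10 and 33.5 CPM in ethanol animal 12, and 0 to 7.82 CPM in the other 18. Ltf, which encodes the secreted iron binder lactoferrin, had 116, 59.0 and 55.1 CPM in those 3 animals and 1.29 to 54.5 CPM in the others, so that the lowest of the 3 was next to the highest of the rest. Of the 8 basal cell genes listed, 3 were tested, Dsg3 had 0 counts in every library and Krt5 stood at 2.67, 0.88 and 0.66 CPM in the 3 animals and 0 to 1.45 CPM in the others, which overlap. Of the 3 tested, Krt15 was not called, at 2.30 ± 1.54 at PG 1100 and -3.57 ± 1.85 at VEA 12.5, and 1 was called higher at each VEA dose. That gene was Ngfr, a receptor for neurotrophins, with 2.16, 1.54 and 1.68 CPM at VEA 12.5, against 0.11, 0 and 0 CPM in ethanol animals (adjusted p = 0.0107). These levels are near 0. Saline animals had 0.30, 0.61 and 0.97 CPM, VEA 3.12 animal 56 had 0.38 CPM and VEA 6.25 animal 65 had 0.48 CPM. Without the 3 animals high in Bpifa1, 0 of 3 basal genes were called at VEA 6.25, and 1 was called higher at VEA 3.12 and at VEA 12.5. The summed basal level was 4.65 to 133 CPM in PG 1100 animals and 2.19 to 32.7 CPM in saline animals, and 3.73 to 4.86 CPM at VEA 12.5 and 2.27 to 37.0 CPM in ethanol animals. Their part in the Bpifa1 values was not tested.

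**Figure D3:**
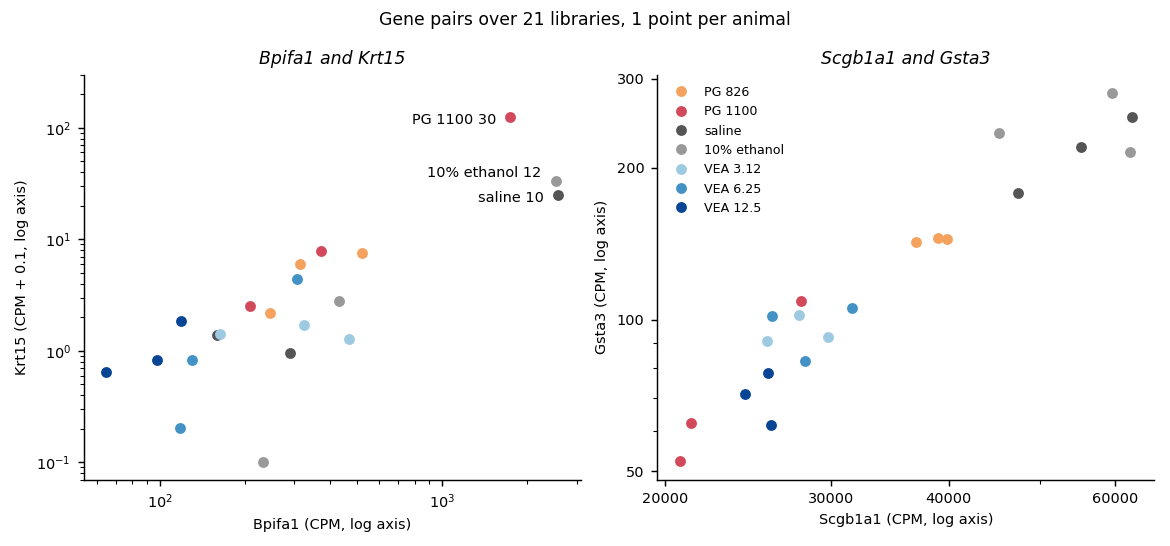
Left, Krt15 (CPM + 0.1) against Bpifa1 (CPM), and right, Gsta3 against Scgb1a1 (CPM), all on log axes, with 1 point per animal over 21 animals and colours by group. On the left PG 1100 animal 30, saline animal 10 and ethanol animal 12 stand above and to the right of the other 18, and on the right the PG 1100 and VEA animals lie at the lower left and the saline and ethanol animals at the upper right.

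Leaving out those 3 animals, a choice made after seeing the data, changed several calls. Scgb3a1 was then called higher after VEA 3.12 (0.81 ± 0.22, adjusted p = 0.0324) and VEA 6.25 (0.82 ± 0.22, adjusted p = 0.0306), and not after VEA 12.5 (0.43 ± 0.22, adjusted p = 0.271). Bpifa1 over the mean of the VEA doses moved to -0.91 ± 0.46 (adjusted p = 0.295), and its PG changes turned positive without a call (0.68 ± 0.58 at PG 826 and 0.37 ± 0.63 at PG 1100). Scgb3a2 was called lower at PG 1100 than at PG 826 (-0.80 ± 0.22, adjusted p = 0.0281). The calls of Cckar (-1.08 ± 0.34, adjusted p = 0.0851) and Chad (-0.89 ± 0.29, adjusted p = 0.0712) at PG 1100 were lost. That left 3 of 9 members called there, all lower. At each VEA dose 6 of 9 were called. At VEA 3.12 and VEA 6.25 these were Scgb3a1, which was higher, and otherwise lower members, and at VEA 12.5 all were lower. The share of all genes called in this fit is not given here, so these counts are descriptions only. Scgb1a1 (-1.28 ± 0.18) and Cyp2f2 (-1.64 ± 0.21) at PG 1100 stayed lower.

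A list of 27 other club cell genes, mostly enzymes of detoxification, was set beside the members. At PG 1100, 9 of 27 fell and 2 rose, with a median change of -0.55. Of all genes, 3.23% were called lower and 4.09% higher there. At PG 826 1 of 27 fell, beside 0.0407% of all genes, and 0 fell without the 3 animals high in Bpifa1. At VEA 3.12, 10 fell and 1 rose, at VEA 6.25, 9 fell and 1 rose, and at VEA 12.5, 11 fell and 3 rose. The median was -0.76 at the highest dose. From the low to the high dose, 2.09%, 2.25% and 4.23% of all genes were called lower, and 3.42%, 3.51% and 5.48% higher. Cyp4b1, a P450 enzyme of club cells, had 83.5, 125 and 183 CPM in PG 1100 animals, against 337, 341 and 340 CPM in saline animals (-1.38 ± 0.17, adjusted p = 1.95e-06). It changed by -1.52 ± 0.17 at VEA 12.5 (adjusted p = 2.37e-07). Sftpd, a collectin that alveolar type II cells also make, rose by 1.16 ± 0.15 at PG 1100 and by 1.28 ± 0.15 at VEA 12.5. Its mean was 2881 CPM at PG 1100 and 1293 CPM in saline, and 3094 CPM at VEA 12.5 and 1272 CPM in ethanol. The summed level of the list, Sftpd included, was 4961 to 7021 CPM in PG 1100 animals and 4760 to 6242 CPM in saline animals. It was 5775 to 6378 CPM at VEA 12.5 and 5239 to 6225 CPM in ethanol animals, so the sums overlapped those of the controls. The other genes that rose, named here after their values were seen, were Krt18 at PG 1100 and Muc5b and Pigr at VEA 12.5.

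Genes of other cells moved in the same animals. Over all genes tested, 3.23% were called lower and 4.09% higher at PG 1100, and 4.23% lower and 5.48% higher at VEA 12.5. Of 18 tested ciliated cell genes, 7 fell and none rose at PG 1100 (summed level 2465 to 3412 CPM in PG 1100 animals and 3328 to 4453 CPM in saline animals), and 8 fell and none rose at VEA 12.5 (2141 to 2269 CPM at VEA 12.5 and 3323 to 4073 CPM in ethanol animals). Without the 3 animals high in Bpifa1 those counts were 4 and 3. Of 12 endothelial genes, 10 fell at PG 1100 (1520 to 2165 CPM in PG 1100 animals and 2792 to 3527 CPM in saline animals) and 5 at VEA 12.5 (2093 to 2206 CPM at VEA 12.5 and 3169 to 3340 CPM in ethanol animals). Of 12 leukocyte genes, 4 rose at PG 1100 (2934 to 5517 CPM in PG 1100 animals and 1508 to 2809 CPM in saline animals) and 6 at VEA 12.5 (2846 to 3111 CPM at VEA 12.5 and 1987 to 2347 CPM in ethanol animals). Most of the leukocyte sum was Lyz2, with 2526 to 4888 CPM at PG 1100 and 2124 to 2348 CPM at VEA 12.5. Lyz2 was called higher at PG 1100 (0.89 ± 0.22, adjusted p = 0.0113) and not called at VEA 12.5 (0.25 ± 0.22, adjusted p = 0.572). Most of the ciliated sum was Sec14l3, with 1494 to 1610 CPM at VEA 12.5. Such sums therefore follow single genes more than their lists. Of 12 alveolar type II genes, 7 rose at PG 1100 and 4 at VEA 12.5, and of 8 erythroid genes 7 and 8 fell. Without the 3 animals high in Bpifa1, type II counts were 5 and 3, erythroid counts 2 and 8, endothelial counts 9 and 6 and leukocyte counts 6 and 6. None of these lists had a gene at 0 in all 21 libraries. Their part in the members' values was not tested.

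**Figure D4:**
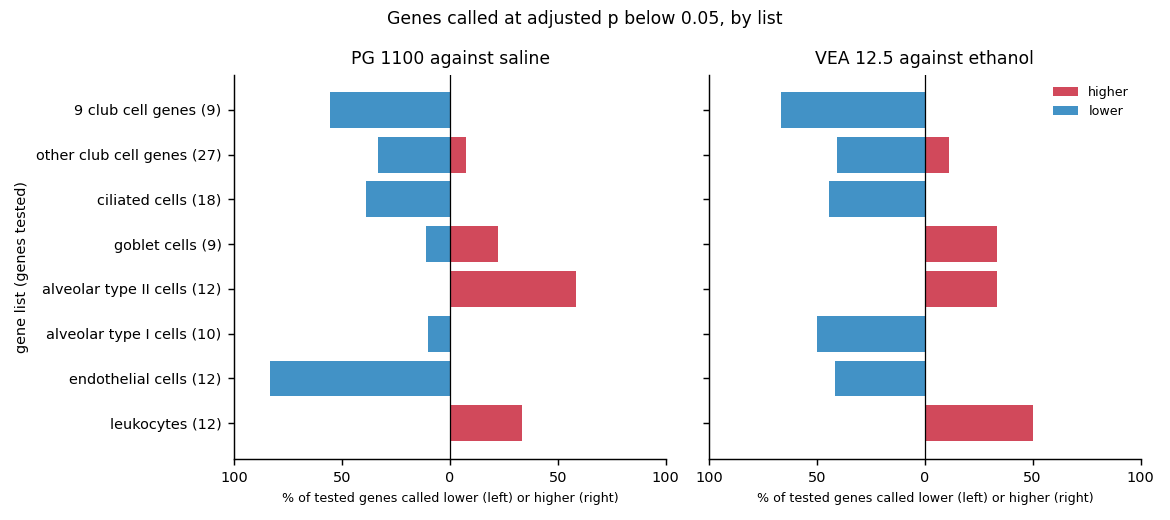
Share of the tested genes of each of 8 lists, in percent, called higher (red, to the right) or lower (blue, to the left) by edgeR at PG 1100 against saline and at VEA 12.5 against 10% ethanol, with the number tested in brackets. Of the 27 other club cell genes, 9 are lower at PG 1100 and 11 at VEA 12.5, and of the 18 ciliated genes 7 and 8 are lower.

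Goblet cell genes, which encode mucins and mucous cell products, included rises after VEA. Of 9 tested, 3 rose and none fell at VEA 12.5, where their summed level was 244 to 290 CPM, against 37.4 to 123 CPM in ethanol animals. At PG 1100, 2 rose and 1 fell, with sums of 54.4 to 88.9 CPM in PG 1100 animals and 34.1 to 68.6 CPM in saline animals. Slc26a4, an anion exchanger, rose by 2.98 ± 0.36 at PG 1100 and 5.76 ± 0.39 at VEA 12.5. Clca1, a secreted regulator of mucus, rose by 5.27 ± 0.70 at VEA 12.5 (adjusted p = 0.00018). At PG 1100 Clca1 had 2.22, 3.21 and 1.11 CPM, against 1.78, 0.24 and 1.36 CPM in saline animals. Agr2, another gene of the list, rose by 3.16 ± 0.60 at PG 1100 (adjusted p = 0.00060). At VEA 12.5 Agr2 had 1.93, 4.22 and 4.12 CPM, within the ethanol range of 4.72, 1.08 and 1.29 CPM. Over all genes, 4.09% were called higher and 3.23% lower at PG 1100, and 5.48% higher at VEA 12.5.

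Among 16 transcription factors and Notch pathway genes of airway identity, 1 fell at PG 1100 and 2 fell at VEA 12.5. Of all genes tested, 3.23% and 4.23% were called lower in these comparisons. Hey1, a Notch target, changed by -0.69 ± 0.18 at PG 1100 (adjusted p = 0.0136) and by -0.59 ± 0.18 at VEA 12.5 (adjusted p = 0.0277). Hes1, also a Notch target, changed by -0.44 ± 0.14 at VEA 12.5 (adjusted p = 0.0425). In whole-lung RNA the cells behind the Hey1 and Hes1 changes cannot be told apart. Without the 3 animals high in Bpifa1, 1 of 16 fell at PG 1100 and 0 of 16 at VEA 12.5, so both calls at VEA 12.5 were lost. Nkx2-1 was not called, at 0.17 ± 0.18 at PG 1100 and -0.40 ± 0.18 at VEA 12.5.

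Across the 21 libraries, as a description that includes the differences between groups, the non-member genes most like Scgb1a1 in log2 CPM included Gsta3 (Pearson r = 0.96), Cyp4b1 (0.94), Aldh1a1 (0.93), Pon1 (0.93), Stk4 (0.92), Inmt (0.92), Fmo2 (0.91), Asgr1 (0.91) and Fmo1 (0.91), out of 10174 genes averaging 5 CPM or more. Most of these encode detoxifying enzymes, among them the glutathione transferase Gsta3 and the flavin monooxygenases Fmo1 and Fmo2. With a floor of 20 CPM 8 of the 10 highest were still among the 10 highest, and by Spearman's measure 4 were. After removal of group means, r with Scgb1a1 was lower, at 0.62 for Gsta3, 0.43 for Stk4 and 0.20 for Fmo1. Gsta3 had 62.3, 52.4 and 109 CPM in PG 1100 animals, against 178, 220 and 252 CPM in saline animals (-1.54 ± 0.18, adjusted p = 5.95e-07). The 5 genes running most opposite to Scgb1a1 were Bst1, Fcgr3, Sla, Cd84 and Clec4n (r = -0.92 each), which are genes of myeloid and other blood cells. After removal of group means their r was -0.58, -0.18, -0.41, -0.0032 and -0.07 in that order.

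Among the members, Scgb1a1 and Cyp2f2 ran closest together over the 21 libraries (r = 0.96, and 0.71 after removal of group means). Within groups the closest pairs were Scgb1a1 with Bpifa1 (0.84) and Scgb3a1 with Bpifa1 (0.80). Over all libraries Scgb3a1 was nearest to Chad (0.75, and 0.61 within groups), and its r with Scgb1a1 was 0.07, and 0.60 within groups. Genes most like Cyp2f2 included Gsta3 (0.97), Aldh1a1 (0.93), Gstm1 (0.92) and Pon1 (0.92). Bpifa1 was most like Sult1d1 (0.85), Krt15 (0.83), Psmc1 (0.80), Retn (0.80) and Chd9 (0.80), and r with Sult1d1 and Krt15 within groups was 0.92 and 0.91. The points share their libraries and their scaling. PG 1100 animal 30, saline animal 10 and ethanol animal 12 had 1744 to 2578 CPM of Bpifa1, and the other 18 animals 64.6 to 521.3 CPM. The r values of Bpifa1, also those within groups, may rest largely on these 3 animals, which was not tested.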

How the data were processed

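Lung RNA of 21 mice was measured with 1 Lexogen QuantSeq 3′ end library each, made from 500 ng RNA per the labels' protocols. The deposited files hold raw counts per gene symbol, which the authors made with Bowtie2, bedtools and the assembly mm10, per the submitters' processing notes; versions, annotation and strand setting are not given in the sources used here. For 35 repeated symbols, none of them a member, the rows were added up. One edgeR 4.0.16 quasi-likelihood model (R 4.3.3, TMM scaling, filterByExpr, robust) with a mean per group was fitted to all 21 libraries (14 residual degrees of freedom), and p-values were Benjamini-Hochberg adjusted over 14727 genes within each of 10 comparisons. The scripts were tested on simulated data. Alternatives were DESeq2 1.42.0, limma-voom (limma 3.58.1), other scaling and filters, smaller fits and each animal left out. Likeness was Pearson's r of log2 CPM (prior count 2).

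Total counts of 8778028 to 11783151 set the precision of low genes. The 9 members and the gene lists were chosen with earlier results of these data known, so their counts are descriptions. All 9 members were named. From each other list up to 4 genes qualified for naming, the 2 with the smallest p at PG 1100 and at VEA 12.5, as did the 10 genes most and 5 least like Scgb1a1, and the 5 most like Cyp2f2 and Bpifa1, without unnamed gene models; 1 gene that qualified is not reported here. Promoter windows were from RefSeq on GRCm38.p6. No set test was run.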

Additional observations from a re-analysis of the deposited data

Results flagged for a closer look

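For Cldn10 the main fit called a difference between the effects of VEA 12.5 and PG 1100, which are not matched doses. The VEA 12.5 effect against ethanol minus the PG 1100 effect against saline was -0.99 on the log2 scale (SE 0.22, adjusted p = 0.0451, edgeR). The change was -1.34 at VEA 12.5 and -0.35 at PG 1100. The 3 animals at VEA 12.5 lay below all 3 ethanol animals, while PG 1100 animals overlapped saline. The call held under 6 of 21 alternatives, with adjusted p from 0.0076 to 0.166, and the direction under all 21.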

How the results depend on the processing

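No paired analysis was possible because the animal numbers differ in every group. Of 1494 recomputed member changes, 1416 kept their side of the threshold, 53 lost a call and 25 gained one. The sign changed in 49, none of them called in either fit, 10 of these in a dose against its control (6 for Bpifa1 after PG and 4 for Scgb3a1 at VEA 12.5). Calls of Scgb1a1 and Cyp2f2 at PG 1100 and at each VEA dose, and of Cbr2 and Cldn10 at each VEA dose, were kept under all 15 alternatives of each comparison.

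Members called at PG 826 (0) numbered 1 with DESeq2, 3 without the low-count filter and 0 to 1 with 1 animal left out. At PG 1100 (5) they numbered 3 when only the groups compared were fitted, 3 without the 3 libraries high in Bpifa1 and 2 to 5 with 1 animal left out. For PG 1100 against PG 826 (2) they numbered 4 without the filter, 1 with only the groups compared and 2 to 3 with 1 animal left out. At VEA 12.5 (6) they numbered 7 with DESeq2 and with limma-voom, and 4 to 7 over all alternatives. The VEA trend (0) gave 2 without the filter. The difference between agents (1) gave 3 without the filter, and 0 with limma-voom, with the members or with Rn45s and haemoglobin left out of scaling, without the 3 libraries with the fewest genes, without the 3 high in Bpifa1 or with only the groups compared, and 0 to 1 with 1 animal left out. Without the filter, adjusted p of Bpifa1 reached 1.3e-99 at VEA 12.5, with the same change (-3.51) but an SE of 0.16 in place of 1.17. Every call gained without the filter had a smaller SE than in the main fit, and the cause was not tested. Many of the 25 gained calls came from this fit, so they count for little. Over all genes, calls ranged from 5 to 162 at PG 826 (20), 457 to 1343 at PG 1100 (1077), 259 to 1458 for PG 1100 against PG 826 (818), 434 to 1101 at VEA 3.12 (812), 316 to 1116 at VEA 6.25 (849), 873 to 2054 at VEA 12.5 (1430), 1012 to 2221 for the mean of VEA (1715), 0 to 84 for the trend (0), 0 to 17 for ethanol against saline (0) and 12 to 198 for the difference (28). Chad had the least depth, 68 to 356 counts per library.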
